A study of Oryza sativa with 6 samples.

Results

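The genes described here code for transcription factors of the MYB, basic helix-loop-helix (bHLH), basic leucine zipper (bZIP), homeobox, MADS-box and zinc-finger classes, with their close companions of the CONSTANS-like (COL), GATA, Dof, TCP, squamosa promoter-binding-like (SPL) and nuclear factor Y (NF-Y) families. They were taken from the deposited expression table, which lists genes already called different between the lines, by the name of the best Swiss-Prot match of each gene, and 60 of the 2995 listed genes carried such a name. Clock proteins of the LHY and REVEILLE type, HD1 and the phytochrome-interacting factors are not among them, as their names held none of the words searched for. Of 12 families searched for, 11 had a member, and no growth-regulating factor was listed. The members were 18 MYB, 12 bHLH, 12 homeobox, 5 COL, 4 MADS-box, 2 GATA, 2 bZIP, 2 SPL, 1 Dof, 1 TCP and 1 NF-Y gene. The names came from a rice protein in 25 genes, from an Arabidopsis protein in 31 and from another plant in 4, so a name marks the closest described protein and not always the rice gene itself. Another annotation column gives several members a different name. Among these are AGL104 (there AGL66), TCL2 (there ETC3), TCP14 (there TCP15) and bHLH137 (there bHLH63).

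The study asked which genes lie downstream of OsPIL13, a phytochrome-interacting bHLH factor of rice tied to water use under changing light. RNA was sequenced from leaves of PIF4v3m (3 libraries) and of WYG7 (3 libraries), both grown in pots under fluctuating light combined with drought. The labels name the tested line PIF4v3m, which is taken here as the line made by CRISPR/Cas9 in WYG7 that lacks a single nucleotide at the v3 position of the OsPIL13 promoter. WYG7 is the unedited parent. The edited genotype is known from a single line and no control without stress was sequenced, so both groups share the stress treatment. The labels give an age of 3 weeks, whereas the study's text describes leaves taken at the end of a long stress treatment, and the hour of leaf collection is not given in the sources used here, so that time of day and genotype cannot be told apart. The study's text calls the replicates independent without stating whether they were separate plants, and p-values below measure the spread between these libraries alone.

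These families bind DNA through distinct folds. MYB repeats and the homeodomain read DNA with helix-turn-helix units, bHLH and bZIP proteins bind as dimers to short palindromes such as the G-box and ACGT elements, MADS-box proteins bind CArG boxes, and COL, GATA and Dof proteins carry zinc fingers. In leaves, members of these families are known for setting flowering time (COL, MADS-box, SPL), leaf polarity and shape (homeobox), phenolic and sugar metabolism (MYB) and responses to light, drought and abscisic acid (bHLH, bZIP, NF-Y).

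Expression was given in FPKM, fragments scaled to transcript length and to all mapped fragments of a library, so that levels can be compared between genes. The table holds only genes that its authors had called different between the lines, so its p-values are no independent evidence and only the direction and size of a difference are informative. No gene could be tied by its identifier to the edited OsPIL13. A row named APG, a phytochrome-interacting-like factor (LOC4334324), had 0.373, 0.530 and 0.260 FPKM in PIF4v3m against 3.67, 4.18 and 4.28 FPKM in WYG7. Both rows whose best Swiss-Prot match is PIL13 were higher. LOC4342383 had 11.4 to 12.8 FPKM in PIF4v3m against 5.78 to 6.17 FPKM in WYG7. LOC4352761 had 6.34 to 7.26 FPKM in PIF4v3m against 2.32 to 2.67 FPKM in WYG7. Another annotation column names both only as PIL13-like, so neither row is known to be the edited gene. Of 4 listed leaf markers, the ribulose bisphosphate carboxylase small chain had 2372 to 3121 FPKM in PIF4v3m against 841 to 1255 FPKM in WYG7, and 3 chlorophyll a-b binding proteins were lower in PIF4v3m. Among markers of dividing tissue a histone H3.2 gene was listed, at 9.99 to 13.5 FPKM in PIF4v3m against 1.59 to 2.02 FPKM in WYG7, and floral organ MADS-box genes had 0 rows. The summed FPKM of all listed genes was 67146 to 72353 per library in PIF4v3m and 73597 to 83228 in WYG7. The part of leaf make-up in the results below was not tested, and in whole leaves fewer cells of a type cannot be told apart from less RNA per cell.

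More of the 60 factor genes were higher than lower in PIF4v3m, while over all listed genes somewhat more were lower than higher. On the log2(FPKM + 1) scale, with limma and Benjamini-Hochberg adjustment over all 2995 genes, 43 members (71.7%) were higher and 17 (28.3%) were lower at an adjusted p under 0.05, beside 45.8% higher and 54.1% lower over all listed genes. Since 99.9% of the listed genes passed this test, a call by itself marks no member out. The median log2 fold change of PIF4v3m over WYG7 was 0.84 over the members and -0.56 over all listed genes, whereas the median absolute change was 1.13 over the members and 1.10 over all listed genes. A change over 2-fold on that scale was found in 25 members upward (41.7%) and in 9 downward (15.0%), beside 26.6% and 33.9% of all listed genes. Every listed gene had passed the authors' limit of about 2-fold, so this count depends on gene level and on the 1 FPKM added before taking logs. With 0.01 FPKM added instead, it was 42 up and 17 down for the members. For all listed genes it was then 1317 up and 1617 down. Under centring of each library on its median, with 1 FPKM added again, the split over 2-fold was 35 up and 7 down for the members. For all listed genes it was 1145 up and 579 down, so the gap between members and table was narrower there. After quantile normalization the split was 28 up and 8 down for the members and 960 up and 769 down for all listed genes, and with each library brought to the mean total it was 29 up and 8 down against 953 up and 809 down. Adjusted p ranged between 1.88e-07 and 0.0216 over the members (limma).

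**Figure D1:**
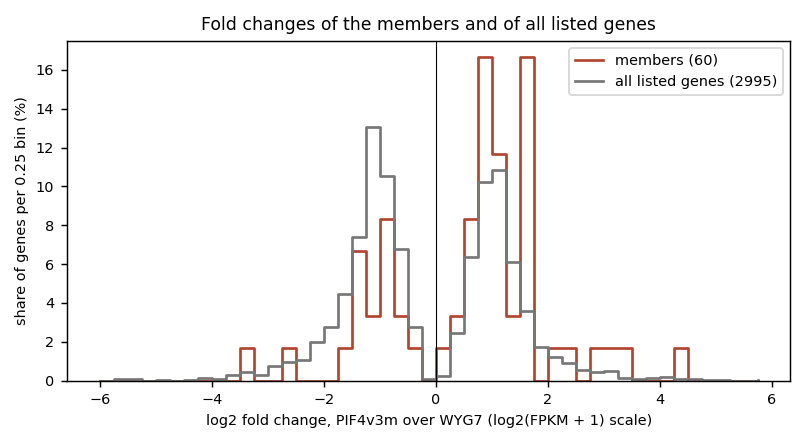
Distribution of the log2 fold change of PIF4v3m over WYG7 on the log2(FPKM + 1) scale for the 60 members (red) and all 2995 listed genes (grey), as the share of genes per bin in percent. The gap around 0 follows from the table holding only called genes; 43 members lie right of 0 and 17 left of it.

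The summed FPKM of the 60 members was 1264 to 1271 per library in PIF4v3m and 577 to 637 in WYG7. The median member level was 6.61 FPKM in PIF4v3m and 2.77 FPKM in WYG7, and 8 members stayed under 1 FPKM in both lines. The 3 libraries of a line did not overlap with those of the other line in 59 of the 60 members, 42 of them higher and 17 lower in PIF4v3m, beside 99.4% of all listed genes (45.5% higher and 53.9% lower). The exception was HOX29 (LOC4327348), described with the homeobox genes. The coefficient of variation between libraries had a median of 10.8% in PIF4v3m and 15.2% in WYG7. WYG7 replicate 1 lay farthest from its line's other libraries in 31 members and was the highest of the 3 WYG7 libraries in 30.

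**Figure D2:**
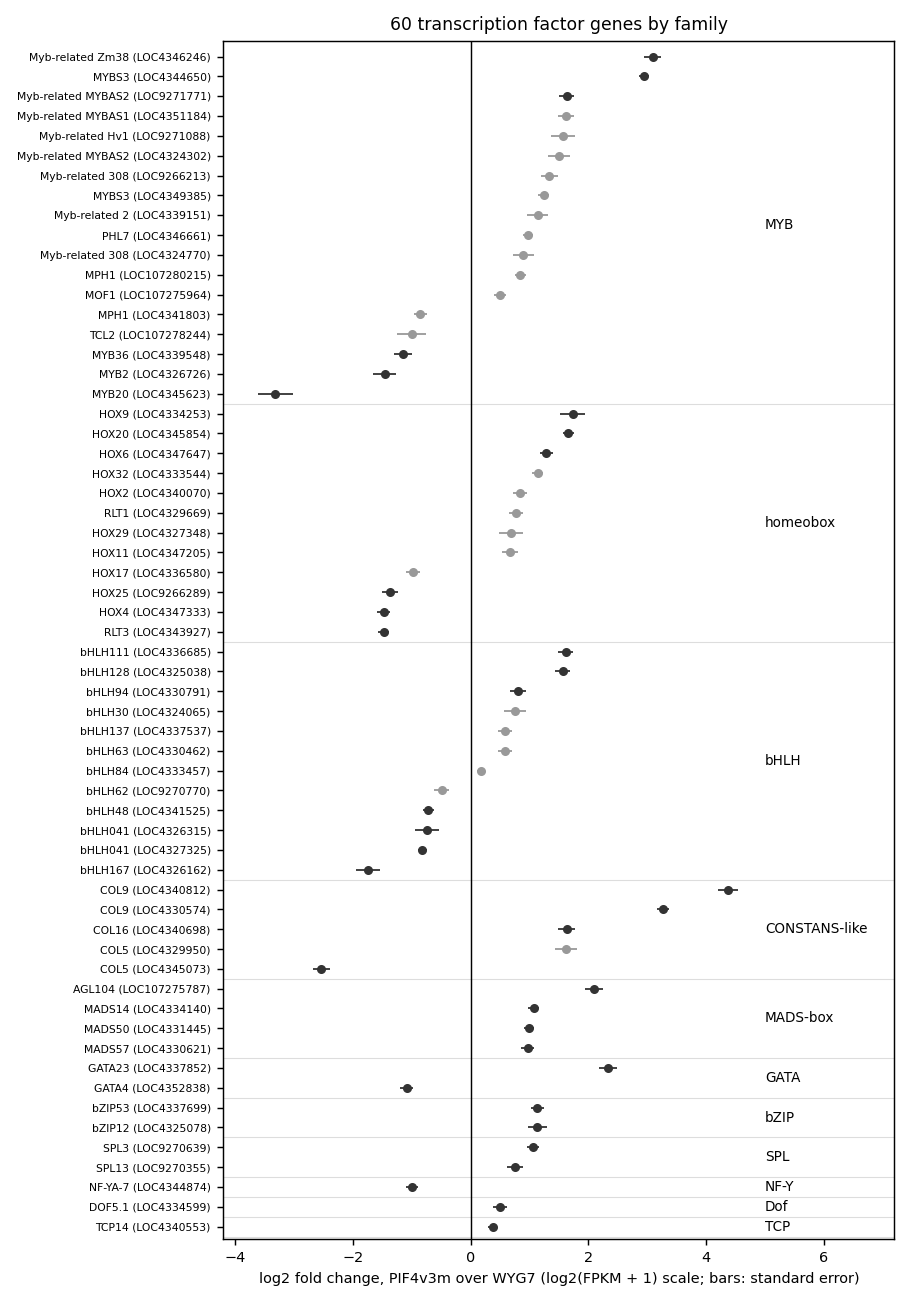
Log2 fold change of PIF4v3m over WYG7 for each of the 60 genes, on the log2(FPKM + 1) scale, ordered within families, with bars for the standard error from limma. Black points are the 36 genes chosen by the naming rule and grey points the other 24. The range runs from -3.32 (MYB20) to 4.38 (COL9, LOC4340812), and the 4 MADS-box genes all lie right of 0.

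The COL family held the largest upward changes: 4 of its 5 genes were higher in PIF4v3m and 1 was lower. COL proteins share the CCT motif of CONSTANS, the photoperiod regulator of flowering. A gene named for COL9, which delays flowering in Arabidopsis (LOC4340812), had 48.4, 45.1 and 43.8 FPKM in PIF4v3m against 0.696, 1.61 and 1.57 FPKM in WYG7. This was the largest upward change among the members, with a log2 fold change of 4.38 (SE 0.17, adjusted p = 6.62e-07, limma), and it placed the gene at rank 9 of 60 by level in PIF4v3m and at rank 42 in WYG7. The other COL9-named gene (LOC4330574) had 38.7, 35.5 and 34.5 FPKM in PIF4v3m against 2.57, 2.76 and 3.26 FPKM in WYG7, a log2 fold change of 3.27 (SE 0.11). The COL16-named gene (LOC4340698) had 56.4, 44.6 and 49.6 FPKM in PIF4v3m against 12.4, 17.1 and 17.3 FPKM in WYG7. In all of these the lowest PIF4v3m library stood well above the highest WYG7 library.

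The genes named for COL5, which acts on flowering in short days in Arabidopsis, moved in opposite directions. LOC4345073 had 3.29, 2.54 and 3.22 FPKM in PIF4v3m against 26.9, 19.4 and 21.0 FPKM in WYG7, a log2 fold change of -2.54 (SE 0.15, adjusted p = 2.46e-06, limma). LOC4329950 had 39.8, 23.8 and 36.6 FPKM in PIF4v3m against 8.96, 9.32 and 11.8 FPKM in WYG7, a log2 fold change of 1.62 (SE 0.19). The order within the family was thus turned over at its ends: LOC4345073 was the lowest of the 5 in PIF4v3m and the highest in WYG7. A further annotation column of the file names LOC4345073 for COL3 instead of COL5.

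**Figure D3:**
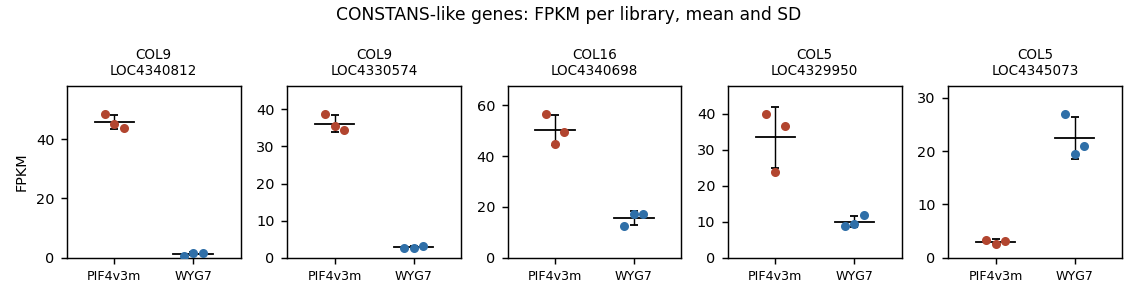
FPKM of the 5 COL genes in each library of PIF4v3m (red, left) and WYG7 (blue, right), with the mean as a horizontal line and the SD as bars (n = 3 per line), on separate axes that start at 0. LOC4340812 averaged 45.8 FPKM in PIF4v3m and 1.29 FPKM in WYG7, and LOC4345073 averaged 3.02 FPKM in PIF4v3m and 22.5 FPKM in WYG7.

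All 4 MADS-box genes were higher in PIF4v3m, 3 of them close to the 2-fold limit by which genes were listed. MADS14 (LOC4334140), a rice gene of the APETALA1/FRUITFULL group that acts in the switch to flowering, was the most abundant member in either line, at 334, 351 and 328 FPKM in PIF4v3m against 169, 152 and 161 FPKM in WYG7 (log2 fold change 1.07, SE 0.09). MADS50 (LOC4331445), an activator of flowering related to SOC1, had 53.5, 58.9 and 56.7 FPKM in PIF4v3m against 30.2, 26.8 and 26.6 FPKM in WYG7. MADS57 (LOC4330621), which acts in tiller outgrowth in rice, had 22.3, 24.2 and 19.9 FPKM in PIF4v3m against 11.6, 10.3 and 10.5 FPKM in WYG7. The ratios of mean FPKM were 2.10 for MADS14, 2.02 for MADS50 and 2.05 for MADS57. Genes entered the table at a change of about 2-fold or more, so the likeness of these ratios is no result about the family. The low-abundance gene named for AGL104, a factor of pollen maturation in Arabidopsis (LOC107275787), stood apart with 6.89, 6.44 and 7.54 FPKM in PIF4v3m against 0.733, 0.670 and 1.21 FPKM in WYG7 and a ratio of 7.99.

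Both SPL genes, of a family that is repressed by the microRNA miR156 and promotes phase change, were higher in PIF4v3m. SPL3 (LOC9270639) had 44.1, 47.4 and 42.7 FPKM in PIF4v3m against 18.8, 23.0 and 21.3 FPKM in WYG7 (log2 fold change 1.06, SE 0.10). SPL13 (LOC9270355), which acts on grain length in rice, was less abundant, with 2.56, 3.24 and 2.35 FPKM in PIF4v3m against 1.24, 1.32 and 1.03 FPKM in WYG7. In either gene every PIF4v3m library was above every WYG7 library.

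Among the 18 MYB genes 13 were higher and 5 lower in PIF4v3m, with a median log2 fold change of 1.06. LOC4344650 was matched to MYBS3, a single-repeat rice MYB that represses sugar-starvation genes and acts in cold tolerance. It had 87.5, 89.4 and 89.8 FPKM in PIF4v3m against 11.1, 11.2 and 9.76 FPKM in WYG7. It had the smallest adjusted p of all members (log2 fold change 2.94, SE 0.09, adjusted p = 1.88e-07, limma) and ranked second by level in PIF4v3m but 17th in WYG7. The other gene matched to the same protein (LOC4349385) had 59.7, 54.4 and 58.8 FPKM in PIF4v3m against 25.0, 25.0 and 21.4 FPKM in WYG7, a log2 fold change of 1.24 (SE 0.10). Another annotation column names LOC4349385 as MYBS3 and LOC4344650 only as MYBS3-like. The libraries of a line lay close together in both genes.

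The largest upward change of a MYB gene was in the one named for maize Zm38 (LOC4346246), at 27.0, 21.9 and 22.6 FPKM in PIF4v3m against 2.10, 2.15 and 1.51 FPKM in WYG7 (log2 fold change 3.09, SE 0.14). It belongs to the R2R3 type, the plant MYB proteins with a pair of repeats, of which 7 were higher and 3 lower among 10 listed. Zm38 resembles an Antirrhinum MYB that represses phenolic metabolism, and both genes named for that Antirrhinum protein were also higher. LOC9266213 had 7.59, 5.75 and 6.45 FPKM in PIF4v3m against 2.27, 1.76 and 1.96 FPKM in WYG7, and LOC4324770 had 11.4, 8.94 and 7.43 FPKM in PIF4v3m against 5.56, 4.06 and 3.86 FPKM in WYG7. The spread in LOC4324770 left only a narrow gap between its lowest PIF4v3m and its highest WYG7 library.

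The 3 MYBAS genes, named for rice R2R3 proteins, were all higher in PIF4v3m, and MYBAS1 was the least abundant of them. MYBAS2-named LOC9271771 had 47.5, 57.1 and 56.5 FPKM in PIF4v3m against 19.5, 14.8 and 15.6 FPKM in WYG7. MYBAS2-named LOC4324302 had 51.4, 61.3 and 49.9 FPKM in PIF4v3m against 25.1, 15.9 and 15.6 FPKM in WYG7. MYBAS1 (LOC4351184) had 24.9, 28.0 and 29.4 FPKM in PIF4v3m against 9.41, 6.62 and 8.95 FPKM in WYG7. Their log2 fold changes were 1.64, 1.5 and 1.62, and WYG7 replicate 1 was the highest WYG7 library in each. The barley Hv1-named gene (LOC9271088) was scarcer, with 3.37, 4.07 and 3.46 FPKM in PIF4v3m against 1.15, 0.353 and 0.300 FPKM in WYG7.

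The downward MYB changes were mostly in genes at or near the bottom of the scale in PIF4v3m. MYB20 (LOC4345623), named for an Arabidopsis R2R3 factor, had 0.105, 0.0698 and 0.0582 FPKM in PIF4v3m against 17.2, 6.29 and 8.32 FPKM in WYG7. This was the largest downward change of any member (log2 fold change -3.32, SE 0.30, adjusted p = 1.84e-05, limma). With 0.1 FPKM added instead of 1, the log2 fold change of MYB20 was -5.79. LOC4326726 was named for MYB2, a rice R2R3 factor known for stress tolerance, but another annotation column calls it MYB2-like. It had 0.134, 0.214 and 0.0695 FPKM in PIF4v3m against 3.35, 1.59 and 1.70 FPKM in WYG7 (log2 fold change -1.46, or -3.24 with 0.1 FPKM added instead of 1). The gene named for MYB36, a regulator of Casparian strip formation in Arabidopsis roots (LOC4339548), had 0.436, 0.506 and 0.794 FPKM in PIF4v3m against 3.17, 2.09 and 2.29 FPKM in WYG7. Another annotation column names LOC4339548 for RAX2. In MYB20, MYB2 and MYB36 the highest value came from WYG7 replicate 1, the library that lay apart most often, and the other WYG7 libraries were still above every PIF4v3m library. The log2 fold change of MYB20 without WYG7 replicate 1 was -2.94. The R3-type gene named for TCL2, an inhibitor of trichome formation in Arabidopsis (LOC107278244), had 8.56, 10.7 and 5.86 FPKM in PIF4v3m against 12.5, 18.4 and 22.4 FPKM in WYG7, and these were the closest sets of values among the lower MYB genes.

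**Figure D4:**
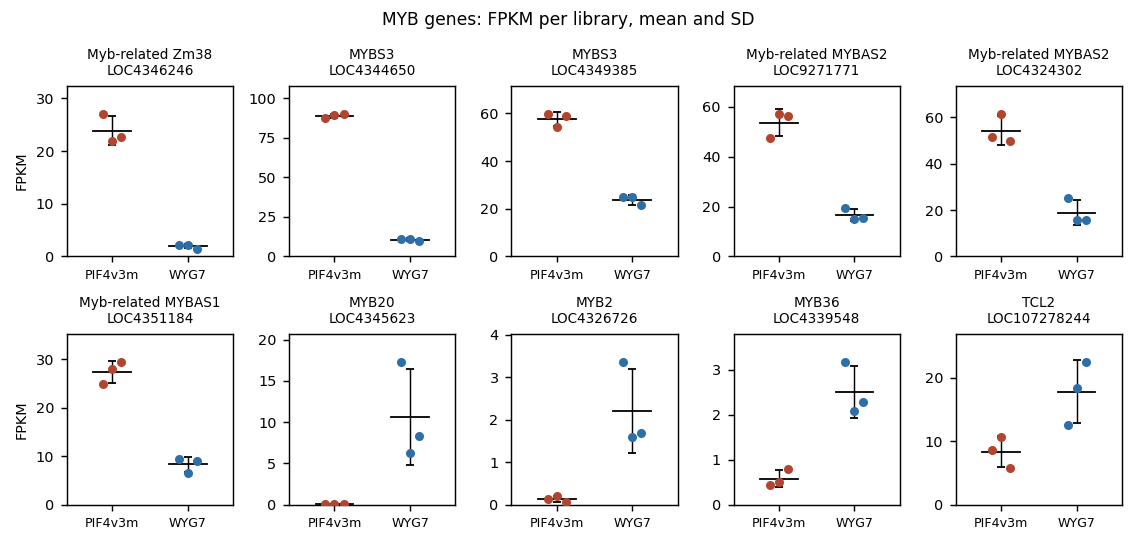
FPKM of 10 MYB genes in each library of PIF4v3m (red, left) and WYG7 (blue, right), with the mean as a horizontal line and the SD as bars (n = 3 per line), on separate axes that start at 0. The first 6 panels show genes higher in PIF4v3m and the last 4 genes lower in it; WYG7 replicate 1, the leftmost blue point, is the highest WYG7 library in MYB20 (17.2 FPKM), MYB2 (3.35 FPKM) and MYB36 (3.17 FPKM).

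The GARP-type MYB genes, whose proteins carry a single MYB-like domain, counted 4 higher and 1 lower. PHL7 (LOC4346661), of the MYB-CC group to which the phosphate starvation regulators belong, had 37.3, 35.1 and 36.7 FPKM in PIF4v3m against 19.0, 17.1 and 17.8 FPKM in WYG7, and Myb-related protein 2 (LOC4339151) of the same group had 8.14, 13.5 and 9.66 FPKM in PIF4v3m against 4.0, 4.32 and 3.97 FPKM in WYG7. The genes matched to MPH1, a regulator of plant height in rice, differed in direction. LOC107280215 had 1.09, 0.946 and 0.959 FPKM in PIF4v3m against 0, 0.188 and 0.168 FPKM in WYG7, whereas LOC4341803 had 0.584, 0.551 and 0.556 FPKM in PIF4v3m against 2.21, 1.64 and 1.67 FPKM in WYG7. Another annotation column names LOC4341803 for KAN3. The gene named for MOF1, which limits floret number in rice (LOC107275964), was low in both lines. It had 1.03, 1.09 and 0.696 FPKM in PIF4v3m against 0.337, 0.423 and 0.328 FPKM in WYG7.

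Of the 12 homeobox genes 8 were higher and 4 lower in PIF4v3m, and the family's summed FPKM overlapped between the lines, at 99.2 to 105 per library in PIF4v3m and 95.2 to 109 in WYG7. The split ran through the HD-ZIP I group, whose proteins join a homeodomain to a leucine zipper and act in drought and growth responses. HOX20 (LOC4345854) had 29.2, 26.8 and 28.4 FPKM in PIF4v3m against 8.59, 8.0 and 8.07 FPKM in WYG7, and HOX6 (LOC4347647) had 12.7, 13.9 and 15.1 FPKM in PIF4v3m against 5.27, 4.81 and 5.24 FPKM in WYG7. HOX4 (LOC4347333) had 15.7, 13.9 and 13.3 FPKM in PIF4v3m against 42.1, 37.1 and 45.4 FPKM in WYG7, and HOX25 (LOC9266289) had 4.56, 3.33 and 4.55 FPKM in PIF4v3m against 13.5, 11.2 and 12.2 FPKM in WYG7. The log2 fold changes were 1.66 for HOX20 and 1.28 for HOX6, against -1.47 for HOX4 and -1.37 for HOX25 (SE 0.09 to 0.14). HOX4 was the second most abundant member in WYG7 and stood at rank 19 in PIF4v3m, and HOX20 was the most abundant homeobox gene in PIF4v3m.

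All 3 HD-ZIP III genes, a class known for setting the upper side of leaves and vascular pattern, were higher in PIF4v3m. HOX9 (LOC4334253) had 12.6, 10.2 and 11.1 FPKM in PIF4v3m against 2.23, 1.96 and 4.19 FPKM in WYG7 (log2 fold change 1.74, SE 0.21), although another annotation column names it for ROC4, an HD-ZIP IV protein. HOX32 (LOC4333544) had 13.5, 14.4 and 13.5 FPKM in PIF4v3m against 5.65, 6.15 and 5.40 FPKM in WYG7. HOX29 (LOC4327348) had 1.32, 0.700 and 1.70 FPKM in PIF4v3m against 0.175, 0.245 and 0.754 FPKM in WYG7. It was the sole member whose lines overlapped, since PIF4v3m replicate 2 fell below WYG7 replicate 3, and its adjusted p of 0.0107 (limma) was the second largest among the members.

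Among 3 HD-ZIP II genes, a class linked to shade responses in Arabidopsis, HOX11 and HOX2 were higher and HOX17 was lower, all at low level. HOX11 (LOC4347205) had 1.98, 2.30 and 1.98 FPKM in PIF4v3m against 1.17, 0.992 and 0.667 FPKM in WYG7. HOX2 (LOC4340070) had 0.719, 1.21 and 0.986 FPKM in PIF4v3m against 0.236, 0.0759 and 0 FPKM in WYG7. In the other direction, HOX17 (LOC4336580) had 0.780, 0.672 and 0.810 FPKM in PIF4v3m against 2.74, 2.42 and 2.19 FPKM in WYG7. The homeobox-DDT genes, named for partners of ISWI chromatin remodellers in Arabidopsis, also differed in direction. RLT3 (LOC4343927) had 6.90, 6.77 and 6.22 FPKM in PIF4v3m against 19.5, 19.7 and 21.6 FPKM in WYG7 (log2 fold change -1.48, SE 0.10), a change of about the size of that of HOX4, while RLT1 (LOC4329669) had 5.55, 5.07 and 5.32 FPKM in PIF4v3m against 2.59, 2.60 and 2.90 FPKM in WYG7. The libraries of each line were tight in both RLT genes.

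The bHLH family was the least abundant of the larger families, with a median of 1.27 FPKM in PIF4v3m and 0.794 FPKM in WYG7, and counted 7 higher and 5 lower genes. The bHLH128-named gene (LOC4325038) was the most abundant, at 26.3, 22.8 and 29.3 FPKM in PIF4v3m against 9.21, 7.18 and 8.09 FPKM in WYG7 (log2 fold change 1.57, SE 0.13). The bHLH111-named gene (LOC4336685) had 4.15, 4.98 and 5.08 FPKM in PIF4v3m against 0.763, 0.886 and 0.968 FPKM in WYG7 (log2 fold change 1.61, SE 0.13), and no protein domain was listed for it. These were the only bHLH genes over 2-fold higher on the log2(FPKM + 1) scale. The gene named for bHLH63, a cryptochrome-interacting factor in Arabidopsis (LOC4330462), averaged 1.49 ± 0.28 FPKM in PIF4v3m and 0.651 ± 0.042 FPKM in WYG7 (SD, n = 3 each). The other low bHLH genes that were higher, named for bHLH94 (LOC4330791), bHLH30 (LOC4324065) and bHLH137 (LOC4337537), averaged 1.49, 1.3 and 1.57 FPKM in PIF4v3m against 0.417, 0.347 and 0.702 FPKM in WYG7. The smallest upward difference of all members was that of bHLH84 (LOC4333457), at 0.225 ± 0.046 FPKM in PIF4v3m and 0.0837 ± 0.0286 FPKM in WYG7 (SD, n = 3 each). Its log2 fold change was 0.18 with an adjusted p of 0.0216, and it was no longer called without PIF4v3m replicate 2 (adjusted p = 0.0638) or without the mean-variance trend of limma (adjusted p = 0.0905).

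Among the lower bHLH genes, some were listed at 0 in PIF4v3m. The bHLH167-named gene (LOC4326162) had 0, 0.0559 and 0 FPKM in PIF4v3m against 1.43, 3.47 and 2.61 FPKM in WYG7. Its log2 fold change was -1.74 (SE 0.20) on the log2(FPKM + 1) scale, which understates changes of low genes. With 0.1 FPKM added instead of 1 it was -4.41. A bHLH041-named gene (LOC4327325) was listed at 0 in all 3 PIF4v3m libraries and at 0.634, 0.830 and 0.853 FPKM in WYG7, so no fold is given. The other bHLH041-named gene (LOC4326315) averaged 1.23 ± 0.38 FPKM in PIF4v3m and 2.75 ± 0.87 FPKM in WYG7 (SD, n = 3 each). The gene named for bHLH48, a flowering factor in Arabidopsis (LOC4341525), averaged 0.482 ± 0.045 FPKM in PIF4v3m and 1.44 ± 0.13 FPKM in WYG7. The difference of the bHLH62-named gene (LOC9270770), 0.278 ± 0.022 FPKM in PIF4v3m and 0.816 ± 0.316 FPKM in WYG7, was not called after median centring (adjusted p = 0.217) or quantile normalization (adjusted p = 0.0648) with limma. All of these genes were at low level, and the reads behind their values are unknown.

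Both bZIP genes were higher in PIF4v3m. The gene named for Arabidopsis bZIP53, a factor of the low-energy response (LOC4337699), held the third place by level in either line, with 61.9, 63.7 and 76.9 FPKM in PIF4v3m against 32.2, 28.8 and 29.2 FPKM in WYG7. The gene named for bZIP12, which acts in abscisic acid signalling in rice (LOC4325078), had 10.7, 10.01 and 8.17 FPKM in PIF4v3m against 4.66, 3.07 and 3.86 FPKM in WYG7. The log2 fold changes were 1.14 (SE 0.11) for bZIP53 and 1.13 (SE 0.16) for bZIP12, and the lines did not overlap in either.

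The GATA genes differed in direction. The gene named for GATA23, a factor of lateral root founder cells in Arabidopsis (LOC4337852), had 12.0, 10.6 and 11.5 FPKM in PIF4v3m against 1.07, 1.42 and 1.97 FPKM in WYG7 (log2 fold change 2.33, SE 0.16). GATA4 (LOC4352838) had 4.35, 4.09 and 4.78 FPKM in PIF4v3m against 9.61, 10.88 and 10.96 FPKM in WYG7 (log2 fold change -1.09, SE 0.11). NF-YA7 (LOC4344874), named for a subunit of the trimer that binds CCAAT boxes, was lower as well, at 9.97, 8.16 and 9.74 FPKM in PIF4v3m against 19.3, 19.2 and 19.7 FPKM in WYG7. The lone Dof and TCP genes were both higher at low level. DOF5.1 (LOC4334599) had 0.813, 0.787 and 1.33 FPKM in PIF4v3m against 0.406, 0.398 and 0.376 FPKM in WYG7. TCP14, named for a regulator of cell proliferation in Arabidopsis (LOC4340553), had 0.413, 0.466 and 0.534 FPKM in PIF4v3m against 0.152, 0.181 and 0.0766 FPKM in WYG7.

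In levels, the members spanned a wide range in both lines. In PIF4v3m 15 members averaged under 1 FPKM, 21 lay between 1 and 10 FPKM and 24 at 10 FPKM or above, and in WYG7 the counts were 17, 23 and 20. MADS14 was first and bZIP53 the third in both lines, while the second place was held by MYBS3-named LOC4344650 in PIF4v3m and by HOX4 in WYG7. MYBS3-named LOC4349385, MADS50 and both MYBAS2-named genes held ranks 4 to 7 in PIF4v3m with overlapping libraries, so their order was within the spread. By ratio of mean FPKM, 11 members were more than 4-fold higher and 5 more than 4-fold lower in PIF4v3m, the gene listed at 0 left out. The median ratio was 3.17 among the higher members and 3.02, as WYG7 over PIF4v3m, among the lower ones with a value above 0.

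**Figure D5:**
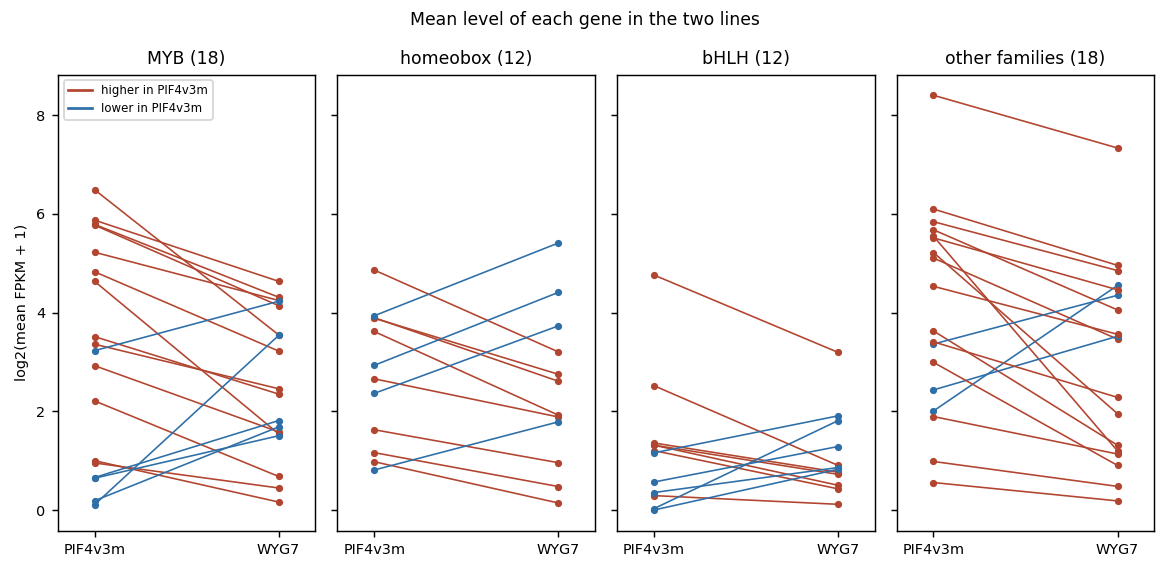
Mean level of each of the 60 genes in PIF4v3m (left) and WYG7 (right) as log2(mean FPKM + 1), in 4 panels for 18 MYB, 12 homeobox, 12 bHLH and 18 other genes. Red lines join the 43 genes higher in PIF4v3m and blue lines the 17 lower ones; the topmost line is MADS14 (338 FPKM in PIF4v3m and 160 FPKM in WYG7) and most bHLH lines run near the bottom.

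Genes with the same best match did not always move together. Of 7 such pairs, 5 shared a direction (COL9, MYBS3, MYBAS2, the Antirrhinum-named MYB and bHLH041), and the COL5 and MPH1 pairs did not. Reads of near-identical copies may have been split between them in the authors' counting, which was not tested. Members were not clustered along the chromosomes: in the gene order of the RefSeq table, only bHLH041-named LOC4327325 and HOX29 lay within 20 genes of each other, and they moved in opposite directions.

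Genes known as regulators or partners of these families were taken by name as well. Of 20 listed, 11 (55%) were higher and 9 (45%) lower in PIF4v3m, beside 45.8% higher and 54.1% lower over all listed genes. Their median log2 fold change was 0.94, beside -0.56 over all listed genes. Among B-box zinc-finger proteins, which share the B-box with CONSTANS, 5 were higher and 1 lower, and B-box 25 (LOC4329923) had 159, 112 and 146 FPKM in PIF4v3m against 33.7, 28.1 and 28.3 FPKM in WYG7. The 3 genes named for an SPX domain were all higher. SPX2 (LOC4328654) is of the kind that holds back MYB-CC phosphate regulators, while the others are named as membrane proteins. HD3A (LOC4340185), a florigen that CONSTANS-type factors control and that acts upstream of MADS14 in rice, had 7.15, 12.1 and 8.95 FPKM in PIF4v3m against 111, 86.2 and 98.9 FPKM in WYG7. MADS14 and MADS50 thus differed in direction from HD3A, without overlap between the lines in any of them. The TIFY proteins 10a and 10c, jasmonate repressors that bind MYC-type bHLH and MYB factors, were lower as well.

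Other transcription factors of the table are given for comparison. WRKY, ethylene-responsive, dehydration-responsive and NAC factors counted 18 higher (45%) and 22 lower (55%) among 40, with a median log2 fold change of -0.59. That lay near the values of all listed genes (45.8% higher, 54.1% lower, median -0.56). Heat stress factors counted 2 higher and 4 lower among 6 (median -1.21). These medians and counts are descriptions and the difference between the groups was not tested. The clock genes of the LHY and REVEILLE type, not among the members, were higher in all 5 rows listed (median 3.25).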

How the data were processed

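Total RNA of rice leaves was sequenced from 3 PIF4v3m and 3 WYG7 libraries, grouped by the genotype in the labels. The authors deposited FPKM per gene and library, normalized for transcript length and mapped fragments. They also deposited a log2 fold change and an FDR (an adjusted p-value) of their own comparison, which were read only to learn how the rows were chosen: all 2995 pass an FDR of 0.01 and a change of 1 on the log2 scale in either direction. Sources differ on the tools. STAR, Cufflinks and DESeq2 stand in the study's methods, but the notes of the submitters list StringTie 1.3.0, HISAT2 2.0 and Bowtie 0.12.2 with a mouse build (mm8), and which run gave the values is not settled. The strand setting of the counting is not given in the sources used here.

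Values were compared as log2(FPKM + 1) in R 4.3.3 by two-sided limma 3.58.1 with its trend option and without covariates, for genes with a mean above 0.01 FPKM, which all 60 members passed. P-values were adjusted by Benjamini-Hochberg over the whole table, and genes were called under 0.05. The scale understates changes of low genes. The functions were tested on simulated data. The test had been planned for a full gene table. As only called genes are listed, its calls are not independent evidence. The study's supplement lists clean reads per library, but reads per gene are not known here. They could not be had from FPKM either. Of the 29 genes that stay under 0.5 FPKM in all libraries, 0 showed multiples of a common step (tolerance 0.02). The counting error of low values is thus not known.

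The members, the gene lists and the naming rule were chosen with earlier results of these data known. The rule named, per family, up to 3 called genes with the largest change in each direction and a line mean of 1 FPKM or more, every gene of families of 4 or fewer, genes at 0 in all 3 libraries of a line, and the 2 most abundant genes of each line. It gave 36 genes, and the others described were chosen after their values were seen. All 60 members matched the RefSeq table of assembly ASM3414082v1, used for gene order alone. Other pseudocounts, filters, scalings, a replicate block, library weights and leaving out each library were tried. Figures were drawn with matplotlib 3.10.9.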

Additional observations from a re-analysis of the deposited data

How the results depend on the processing

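No member changed direction under any alternative run, and all 607 values of the named genes kept direction and call. Every listed gene had already passed the authors' limits on these libraries, so this stability was largely fixed by the choice of rows. The counts of calls (43 higher, 17 lower) ranged over 42 to 43 higher and stayed at 17 lower when each library was left out, and the counts over 2-fold (25 higher, 9 lower) over 25 to 28 higher and 9 to 11 lower. Over 2-fold, a pseudocount of 0.01 FPKM gave 42 higher and 17 lower, 0.1 FPKM gave 41 higher and 17 lower, and rescaling of each library to a total of 1e6, which also lessens the weight of the pseudocount, gave 43 higher and 14 lower. Rescaling to the mean total, which leaves that weight as it was and was chosen after seeing the data, gave 29 higher and 8 lower. With members taken from the Pfam domain column instead of the names, an alternative chosen after seeing the data, 14 were over 2-fold lower and 35 over 2-fold higher among 80.

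With the replicate number as a block the counts were 43 higher, 17 lower, 25 over 2-fold higher and 9 over 2-fold lower. Same-numbered libraries did not deviate together (r = -0.07, 0.003 and -0.10 over genes). This cannot tell whether they were grown or prepared together, which the labels do not state. Scaling moved the median log2 fold change of all listed genes by 0.23 (quantile normalization), 0.29 (median centring) and 0.05 (rescaling to the mean total), and rescaling to 1e6, where the pseudocount weighs less, moved it by -0.39. Of all genes over 2-fold, 44.0% were higher as reported, 66.4% after median centring, 55.5% after quantile normalization and 54.1% after rescaling to the mean total, and for the members the shares were 73.5%, 83.3%, 77.8% and 78.4%. bHLH84 lost its call without PIF4v3m replicate 2 and without the trend, and bHLH62 under the median and quantile scalings. Since no reads per gene are known, differences under 1 FPKM carry an unknown counting error.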

Other observations

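A further 24 listed genes carried a protein domain of these families in the Pfam column without a matching name. The LHY, REVEILLE, HD1, APG, SPATULA and phytochrome-interacting rows were left aside, but the clock gene PCL1 was kept. The 24 genes were looked at after the values of the members were known. Of the 24, 16 (66.7%) were higher and 8 (33.3%) lower in PIF4v3m, beside 45.8% and 54.1% of all listed genes. Their median log2 fold change was 1.03. The cyclic Dof factors, repressors of CONSTANS in Arabidopsis, were both higher. Cyclic Dof factor 2 (LOC9272566) had 24.6, 20.2 and 21.9 FPKM in PIF4v3m against 0.601, 0.648 and 0.387 FPKM in WYG7 (log2 fold change 3.91, SE 0.13), and cyclic Dof factor 1 (LOC4348585) had 63.1, 57.4 and 54.1 FPKM in PIF4v3m against 14.6, 10.8 and 11.6 FPKM in WYG7. PCL1 (LOC4326391), a GARP-type clock factor related to LUX of Arabidopsis, had 67.3, 70.0 and 56.6 FPKM in PIF4v3m against 8.25, 7.62 and 10.7 FPKM in WYG7. In each of these genes all PIF4v3m libraries were above all WYG7 libraries.

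The genes matched to CO3, a rice CONSTANS-like protein, moved in opposite directions, as the COL5 pair did. LOC4346474 had 37.8, 35.3 and 43.2 FPKM in PIF4v3m against 7.67, 5.94 and 5.33 FPKM in WYG7, whereas LOC4328490 had 32.2, 25.3 and 32.4 FPKM in PIF4v3m against 73.4, 67.5 and 72.0 FPKM in WYG7. Among iron-related bHLH genes, IRO2 and IRO3 were higher and the ILR3-named gene was lower. IRO2 (LOC4325750) had 19.6, 3.16 and 11.8 FPKM in PIF4v3m against 0.220, 0.888 and 0.664 FPKM in WYG7, with a wide spread in PIF4v3m. IRO3 (LOC4332972) had 20.2, 14.9 and 16.5 FPKM in PIF4v3m against 7.35, 7.78 and 6.63 FPKM in WYG7. The gene named for ILR3 (LOC4338978) had 6.48, 11.2 and 10.6 FPKM in PIF4v3m against 35.9, 25.4 and 25.2 FPKM in WYG7. The cause of these patterns was not tested.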
